A study of Mus musculus with 162 samples.

Results

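Metallothioneins are small, cysteine-rich proteins that bind zinc and copper. The members described here are Mt1, Mt2 and Mt3, chosen by gene symbol, and they are 3 of the 53686 genes in the count table. Messenger RNA was sequenced from 9 organs of 18 mice, with 3 mice at each of 6 fasting times. All mice were group-housed male C57Bl/6J animals aged 8 to 9 weeks, and every mouse gave all 9 organs. Mice fed ad libitum form the 0 h group, and the other groups had no food for the last 2, 8, 12, 18 or 22 h. All were killed at the same clock time, shortly after lights off, so a longer fast also began at another time of day: the 2, 8 and 12 h fasts in the light and the 18 and 22 h fasts in the dark period before it. The length of a fast and its hour of onset cannot be told apart. The organs were olfactory bulb (OB), telencephalon with diencephalon (BRN), cerebellum (CBL), brainstem (BST), stomach (STM) and liver (LIV), with the brown fat between the shoulder blades (iBAT, interscapular) and white fat from a perigonadal (pgWAT) and a posterior-subcutaneous (psWAT) depot. Below, the 18 and 22 h groups together are the late fast, and the 8 and 12 h groups together are the daytime fast.

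Mt1 and Mt2 are made in most cell types and buffer cellular zinc, and their transcription rises with metals through the transcription factor MTF1 and with glucocorticoids. Mt3 is known as the metallothionein of the nervous system, present in neurons and astrocytes and less responsive to metals. Mt4, a relative found mainly in stratified squamous epithelia, lies outside the members and is given only for comparison. All sit in 1 cluster on mouse chromosome 8 (GRCm38, plus strand): Mt4 at chr8:94137197-94139031, Mt3 (ENSMUSG00000031760) at chr8:94152607-94154146, Mt2 (ENSMUSG00000031762) at chr8:94172664-94173568 and Mt1 (ENSMUSG00000031765) at chr8:94179082-94180327. From the first base of Mt3 to the last base of Mt1 the cluster covers 27721 bases. An antisense gene on the minus strand, Gm45774, overlaps 432 of the 588 exon bases of Mt2 (73.5%). The strand setting of the counting is not given in the sources used here. If reads were counted without regard to strand, those over the shared bases would be dropped as ambiguous, and Mt2 levels would be too low and ratios of Mt1 to Mt2 too high.

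**Figure D1:**
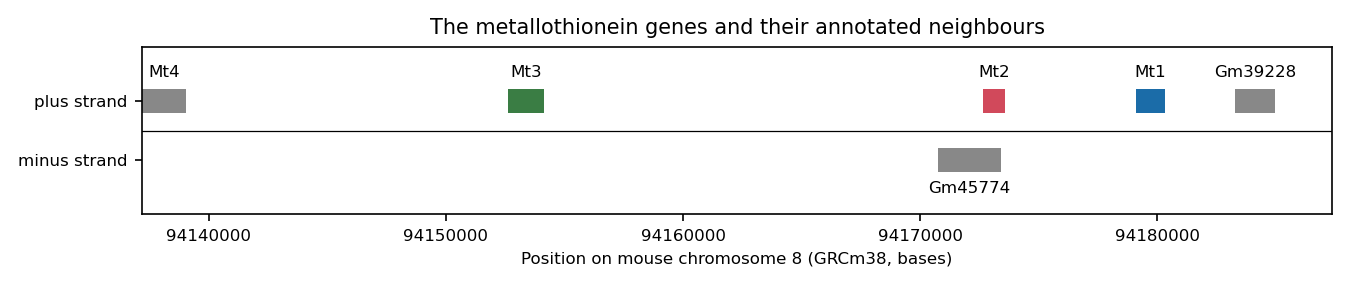
Map of the metallothionein cluster, with the position on mouse chromosome 8 in bases (GRCm38) on the horizontal axis and 1 box per annotated gene, placed by strand. Mt4, Mt3, Mt2 and Mt1 follow each other on the plus strand, and the minus-strand gene Gm45774 overlaps Mt2.

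The smallest library held 130701 counts, the largest 27801717, and the median was 8696326. The study left out 5 libraries for low totals, and the values here rest on the others, the smallest of which held 3045845 counts. The removed ones came from BRN, with 130701 counts at 8 h (replicate 3) and 279848 at 18 h (replicate 1), and from other organs: STM 12 h replicate 3 (4590060), iBAT 22 h replicate 1 (2700482) and psWAT 22 h replicate 2 (2944552). Levels are CPM, that is, counts scaled to the library total, and 3 counts, taken as the floor, equal 0.108 to 0.985 CPM in a retained library. Intervals and floors of this kind cover counting error only. The 3 CBL libraries at 0 h were deeper, at 20396385 to 22071004 counts, than the other CBL libraries. Marker genes were checked against the organ labels. The summed hepatocyte markers had a median of 102545 CPM in LIV, those of gastric epithelium 184380 CPM in STM, those of brown adipocytes 7926 CPM in iBAT and those of cerebellar neurons 8454 CPM in CBL. Olfactory bulb, brainstem and forebrain markers were also highest in OB (1898 CPM), BST (682) and BRN (224). White adipocyte markers were highest in pgWAT (43844 CPM), but lower in psWAT (5910) than in iBAT (12906), and psWAT held lymphocyte markers at 2298 CPM.

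A few retained libraries are treated below as standing apart in these markers. In psWAT 12 h replicate 3 the 7 neuron markers summed to 4578 CPM, against a median of 27.9 and a highest value of 199 in the other psWAT libraries, and the cerebellar neuron markers summed to 5300 CPM against a median of 3.56. In pgWAT 22 h replicate 2 the white adipocyte markers summed to 6562 CPM against a median of 44947. BRN 2 h replicate 3 had the highest cerebellar neuron sum of its organ (278 CPM, the next highest 260). BRN 18 h replicate 2 had the lowest neuron sum (2931 CPM, the next lowest 3476). Both lay at an end of their organ's range rather than far outside it. Several member results that rest on these libraries are also given without them. Other wide sums were not treated in this way. Skeletal muscle markers reached 33759 CPM in a psWAT library (median 514), and exocrine pancreas markers 552 CPM in psWAT (median 5.61). Gastric epithelium markers reached 314 CPM in iBAT (median 1.32), and cerebellar neuron markers 782 CPM in BST (median 264).

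Mt1 was found in every library of every organ. Its median level was 344.0 CPM in CBL, 343.3 in STM, 281.8 in BRN, 248.3 in BST, 217.3 in pgWAT, 203.7 in OB, 149.4 in iBAT, 136.2 in LIV and 105.7 in psWAT. Between organs next to each other in this order, within the same mice, a difference beyond the spread was found for 1 of 8 pairs: STM lay above BRN in 11 of 15 mice (permutation test by sign flips, two-sided, p = 0.00714, adjusted over 24 tests p = 0.019). Without the BRN libraries that stood apart, STM was higher in 9 of 13 mice and the difference did not pass (sign-flip permutation p = 0.0207, adjusted p = 0.0553). The other neighbours did not differ beyond their spread. The spread itself was unequal: Mt1 ranged from 249 to 424 CPM in CBL and from 200 to 303 in BST, but from 24.6 to 1466 in LIV and from 22.4 to 358 in psWAT. When scaling factors were computed over all organs together, Mt1 lay higher in CBL than in STM in only 1 of 17 mice (sign-flip permutation, adjusted p = 2.4e-04), and higher in OB than in iBAT in 2 of 17 (adjusted p = 0.00255) where plain CPM gave 14 of 17. In that scaling STM lay above BRN in 15 of 15 mice (sign-flip permutation, adjusted p = 3.2e-04), and LIV above psWAT in 11 of 17 (adjusted p = 0.0155) where plain CPM gave 10 of 17 (adjusted p = 0.365). The order of these organs depends on the scaling.

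Mt2 had the same organs at the top. Its median level was 144.8 CPM in STM, 121.1 in CBL, 84.8 in BRN, 82.8 in BST, 81.3 in pgWAT, 57.4 in OB, 34.3 in LIV, 21.2 in psWAT and 17.6 in iBAT. CBL lay above BRN in 15 of 16 mice (sign-flip permutation p = 1.1e-04, adjusted p = 6.6e-04). pgWAT lay above OB in 15 of 18 mice (sign-flip permutation p = 0.0065, adjusted p = 0.019). The other 6 pairs of neighbours did not differ beyond their spread. In LIV Mt2 spanned 2.84 to 805 CPM, a wider range than in any other organ. With scaling over all organs STM lay above CBL in 17 of 17 mice (sign-flip permutation, adjusted p = 2.4e-04) where plain CPM gave 11 of 17 (adjusted p = 0.122), and LIV above psWAT in 12 of 17 (adjusted p = 0.0462) where plain CPM gave 10 of 17 (adjusted p = 0.427), so these steps depend on the scaling.

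Mt3 separated the nervous system from the rest. Its median level was 359.3 CPM in BRN, 185.6 in OB, 171.9 in BST and 116.8 in CBL, against 4.12 in pgWAT, 1.67 in STM, 0.932 in psWAT, 0.130 in iBAT and 0 in LIV. Within the nervous system the steps passed: BRN lay above OB in 16 of 16 mice (sign-flip permutation, adjusted p = 4.8e-04), OB above BST in 13 of 18 (adjusted p = 0.0174) and BST above CBL in 18 of 18 (adjusted p = 2.4e-04). With scaling over all organs OB lay above BST in 11 of 18 mice, which did not pass (sign-flip permutation, adjusted p = 0.296), and STM above psWAT in 13 of 16, which passed (adjusted p = 0.0155, against 0.0886 in plain CPM). The step from CBL to pgWAT was the largest, and CBL was higher in 18 of 18 mice (sign-flip permutation p = 1e-05, the smallest that 100000 resamples can give, adjusted p = 2.4e-04). In LIV 15 of 18 libraries held no Mt3 count, and the other 3 held at most 0.119 CPM, so Mt3 was not detectable there beyond the floor. In iBAT 5 of 17 libraries held none. Among the adipose libraries Mt3 was highest in psWAT 12 h replicate 3 (127 CPM), the library with neuronal markers, where the other psWAT libraries reached 7.81 CPM. psWAT lay above iBAT in 12 of 16 mice (sign-flip permutation, adjusted p = 0.017) and, without that library, in 11 of 15 (adjusted p = 0.0244). Over the 3 genes, 9 of the 24 neighbouring pairs of organs passed. Among them, Mt3 in iBAT above LIV (12 of 17 mice, sign-flip permutation, adjusted p = 0.00293) rests on values near or under the floor and is not read as a difference. The step of Mt3 from psWAT to iBAT, with medians of 0.932 and 0.130 CPM, also rests on such values. It is likewise not read as a difference.

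Levels per kilobase of annotated exon cannot rank these genes. The annotated exons of Mt1 cover its whole span of 1246 bases, introns of its short transcript included, where those of Mt2 cover 588 of 905 bases and those of Mt3 1066 of 1540. Values per kb of Mt1 are therefore too low, and those of Mt2 share the strand problem. In BRN the median was 337 CPM per kb for Mt3, 226 for Mt1 and 144.2 for Mt2. In OB it was 174 for Mt3, 163 for Mt1 and 97.7 for Mt2, and in CBL 110, 276 and 206. In STM the medians were 276 CPM per kb for Mt1, 246 for Mt2 and 295 for Mt4, with Mt3 at 1.57. Mt4 reached 0.758 CPM at most outside STM, and within STM its level ran from 5.97 to 337 CPM. The keratin-led keratinocyte markers, of the squamous epithelium type in which Mt4 is known, summed to 742 to 12697 CPM over the same STM libraries.

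**Figure D2:**
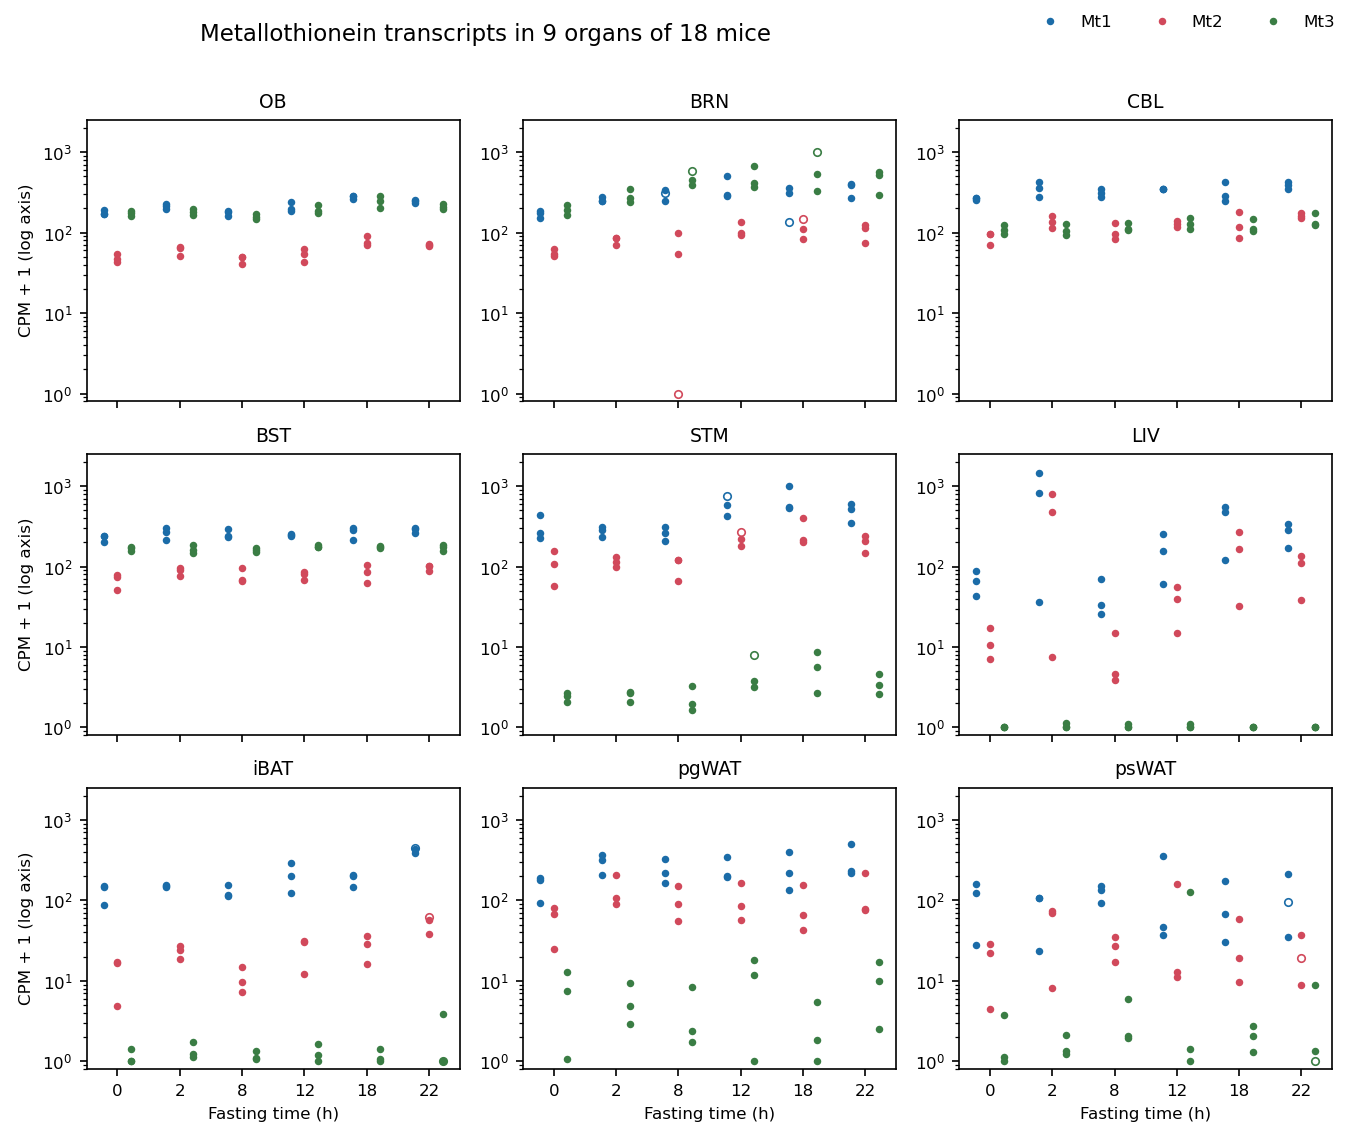
CPM plus 1 (log axis) of Mt1, Mt2 and Mt3 against fasting time in hours, 1 panel per organ and 1 point per library, with open circles for the 5 libraries left out for low totals. Mt3 lies at 92.0 CPM or more in the 4 nervous system organs and near the bottom of the axis in LIV and iBAT, and 2 LIV libraries at 2 h hold the highest Mt1 and Mt2 of that organ.

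Whether metallothionein transcripts moved with fasting was tested in each organ with edgeR's quasi-likelihood test over all kept genes, with Benjamini-Hochberg adjustment. A gene was called where the adjusted p was under 0.05 and the absolute log2 fold change over 1. Mt3 had too few counts in LIV and iBAT, which left 25 pairs of member and organ. Both fed comparisons share the fed mice. In the late fast against fed, 3 of 25 pairs were called, all higher, against 2.56% of all gene and organ pairs. Without the fold threshold 8 of 25 passed, against 6.44%. In the daytime fast against fed, 2 of 25 were called against 0.578%, and 3 passed without the fold threshold against 1.9%. In the late fast against the daytime fast, 1 of 25 was called against 0.977%, and 5 passed without the fold threshold against 6.58%. A joint test of any difference among the 6 times, with no fold threshold, called 7 of 25 against 7.34%. At an unadjusted p under 0.05 there were 18, 3, 9 and 15 of 25 in these 4 tests, against 21.9%, 11.6%, 19.5% and 23.3% of all pairs. DESeq2 called 6, 2, 3 and 12, against 3.7%, 0.879%, 1.58% and 15.4%.

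The estimates of the late fast against fed leaned 1 way. Mt1 was estimated higher in 8 of 9 organs, with log2 fold changes from -0.06 to 2.22. Mt2 was estimated higher in 9 of 9, from 0.40 to 3.41. Mt3 was estimated higher in 6 of 7, from -0.49 to 1.42. In psWAT the sign of all 3 estimates, and in STM and pgWAT that of Mt3, turned in at least 1 other setting. The daytime estimates, against the same fed mice, leaned the same way: higher in 9 of 9 organs for Mt1, 9 of 9 for Mt2 and 6 of 7 for Mt3. Several of these also turned sign in another setting. All organs of a mouse are included, so these organs are not independent. In bulk tissue a change in the number of cells that make a transcript and a change in transcript per cell cannot be told apart, which holds for every comparison below.

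**Figure D3:**
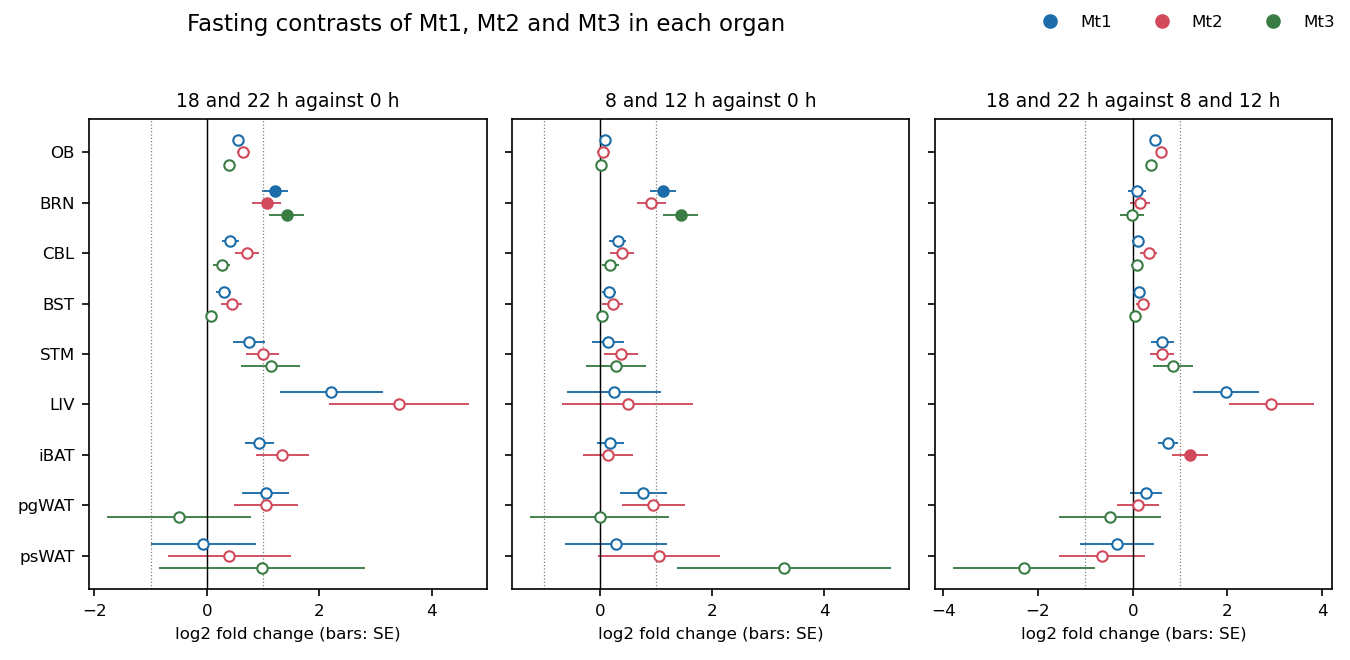
Log2 fold changes of Mt1, Mt2 and Mt3 in each organ for the 3 fasting contrasts, with bars for the SE, filled points for called genes and dotted lines at the fold threshold. Filled points are seen for BRN against fed in the late and the daytime fast and for Mt2 of iBAT in the late fast against the daytime fast.

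In BRN all 3 members were higher after fasting. Mt1 measured 149.2, 175.0 and 186.3 CPM in the fed mice, 243.1, 275.4 and 246.9 at 2 h, 341.4 and 249.7 at 8 h, 291.1, 499.3 and 288.1 at 12 h, 357.5 and 308.4 at 18 h, and 402.9, 390.4 and 271.8 at 22 h. All fasted libraries lay above the 3 fed ones. The share of all genes whose groups separate in this way was not counted, here or for the other organs below. Mt2, the close partner of Mt1, measured 53.0, 61.6 and 49.9 CPM fed, 85.9, 70.1 and 83.7 at 2 h, 99.1 and 53.4 at 8 h, 98.9, 134.2 and 91.9 at 12 h, 109.3 and 81.2 at 18 h, and 114.3, 122.8 and 73.6 at 22 h. The fed and late libraries of Mt2 did not overlap, and 8 h replicate 2 (53.4 CPM) lay within the fed range. Mt3, the nervous system member, measured 165.1, 187.7 and 219.9 CPM fed, 345.6, 236.5 and 267.2 at 2 h, 451.1 and 387.3 at 8 h, 372.9, 682.0 and 408.7 at 12 h, 530.2 and 324.0 at 18 h, and 513.3, 561.1 and 291.3 at 22 h. Again every fasted library was above the fed ones, and the highest was 12 h replicate 2.

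All 3 members were called in the late fast against fed in BRN, where 5.14% of tested genes were called. The log2 fold change was 1.21 for Mt1 (SE 0.234, edgeR adjusted p = 0.00883), 2.32 times the fed level. It was 1.06 for Mt2 (SE 0.257, edgeR adjusted p = 0.0187) and 1.42 for Mt3 (SE 0.311, edgeR adjusted p = 0.0146). Against fed, 2 of 3 were called in the daytime fast, against 3.82%: Mt1 rose by 1.13 (SE 0.233, edgeR adjusted p = 0.0135) and Mt3 by 1.43 (SE 0.311, edgeR adjusted p = 0.0172) on the log2 scale. Mt2 passed the adjusted p but not the fold threshold (0.91, SE 0.255, edgeR adjusted p = 0.0367). The late and daytime fasts did not separate: 0 of 3 members passed in edgeR, 0 at an unadjusted p under 0.05 and 0 by DESeq2, with estimates of 0.09, 0.15 and -0.01, and 0.0% of all tested genes were called (855 at an unadjusted p under 0.05, 0 by DESeq2). In the joint test 0 of 3 were called with edgeR (3 at an unadjusted p under 0.05, against 16.6% of genes, and 3 by DESeq2, against 9.42%) against 0.00597%.

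These BRN calls rest on few libraries. For Mt1 in the late fast, leaving out 0 h replicate 1 gave 1.12 (edgeR adjusted p = 0.0916). For Mt2 the call ended without 0 h replicate 1 (1.03, edgeR adjusted p = 0.109), 0 h replicate 2 (1.17, 0.0523), 0 h replicate 3 (1.02, 0.0798), 18 h replicate 2 (0.88, 0.0703) or 22 h replicate 2 (0.96, 0.0422). For Mt3 it ended without 0 h replicate 1 (1.32, edgeR adjusted p = 0.103), 0 h replicate 2 (1.43, 0.0575), 0 h replicate 3 (1.55, 0.0514) or 18 h replicate 2 (1.15, 0.0592). With only 2 fed mice the edgeR adjusted p rose in each case. In the daytime contrast the call of Mt1 ended without 0 h replicate 1 (1.05, edgeR adjusted p = 0.113), 0 h replicate 2 (1.17, 0.0543), 0 h replicate 3 (1.22, 0.0521), 8 h replicate 1 (1.01, 0.0566) or 12 h replicate 2 (0.92, 0.0143). That of Mt3 ended without 0 h replicate 1 (1.35, edgeR adjusted p = 0.125), 0 h replicate 2 (1.45, 0.0627), 0 h replicate 3 (1.58, 0.0554) or 8 h replicate 1 (1.39, 0.0567). Mt2 in the daytime fast gained a call without 8 h replicate 2 (1.09, edgeR adjusted p = 0.0488). Without the BRN libraries that stood apart, Mt1, Mt2 and Mt3 of the late fast were at 1.10 (edgeR adjusted p = 0.0531), 0.88 (0.0952) and 1.15 (0.0785). With all libraries included, the late calls ended (edgeR adjusted p = 0.249, 0.38 and 0.0661), as did the daytime calls of Mt1 (0.229) and Mt3 (0.0665). With 0 and 2 h together as fed, Mt1 (0.88) and Mt2 (0.75) of the late fast fell under the fold threshold. So did Mt1 of the daytime fast (0.79).

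Some cell type markers moved along with the BRN members, and lanes were unevenly spread over the groups. The fed libraries came from lanes 1, 3 and 5, and both 18 h libraries from lane 1. The library names of all fed BRN samples also share the same leading digits, while all retained late libraries share other leading digits. Both kinds of name occur at 2 h and in the daytime fast, where the kind of the late libraries prevails. What the names stand for is not given, and they cannot be told apart from the late fast against fed. With lane in the fit, the late-fast estimates were 1.20 for Mt1, 1.09 for Mt2 and 1.43 for Mt3 (edgeR adjusted p = 0.524 for each), and the daytime estimates were 1.31 for Mt1 and 1.65 for Mt3 (edgeR adjusted p = 0.454 for both). None of these passed, and in the same fit 0 of 16749 BRN genes were called by edgeR in either contrast (1581 and 1739 at an unadjusted p under 0.05), against 861 and 639 without lane. Fed libraries held 6149574 to 9578253 counts, within the range of all BRN libraries (3045845 to 12108290). The 5 oligodendrocyte markers, led by Mbp and none at 0, summed to 8395, 8129 and 6271 CPM in the fed mice, to 13832, 6752 and 11721 at 2 h, to 18084 and 16853 at 8 h, to 11804, 11615 and 10811 at 12 h, to 19730 and 7475 at 18 h and to 16144, 24287 and 8989 at 22 h. All 5 daytime libraries, but not all late ones, exceeded the fed range. The 7 neuron markers, led by Snap25, summed to 6134, 5654 and 5456 CPM fed, 4100, 3903, 5162, 3733 and 5155 in the daytime fast, and 2931, 5223, 4347, 3476 and 5511 in the late fast. The 9 astrocyte markers, led by Slc1a2, stayed between 3788 and 4743 CPM throughout. The 5 forebrain markers summed to 265 to 295 CPM fed, 194 to 226 in the daytime fast and 164.2 to 263.6 in the late fast, with every daytime and late library below the fed ones. The 7 microglia and macrophage markers summed to 190.5 to 216.0 CPM fed, 208 to 341 in the daytime fast and 229 to 317 in the late fast, with every late library above the fed ones. The part of cell composition, depth or library naming in the BRN differences was not tested. Lane was tried only as the covariate above, where the estimates stayed near those without lane and no gene was called.

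In OB Mt1 measured 171.7, 170.6 and 192.4 CPM in the fed mice, 224.3, 193.9 and 211.3 at 2 h, 183.02, 178.9 and 159.6 at 8 h, 236.3, 183.3 and 196.1 at 12 h, 286.1, 258.5 and 287.7 at 18 h, and 255.6, 233.4 and 248.3 at 22 h. The 6 late libraries lay above the 3 fed ones, and the daytime libraries overlapped the fed range. Mt2 measured 42.5, 45.4 and 53.2 CPM fed, 63.8, 50.3 and 65.9 at 2 h, 48.6, 48.8 and 39.7 at 8 h, 61.7, 42.3 and 52.6 at 12 h, 74.4, 69.4 and 88.96 at 18 h, and 70.4, 68.2 and 67.5 at 22 h. All 6 late libraries of Mt2 exceeded the fed and the daytime ones. Mt3 measured 160.6, 172.0 and 185.0 CPM fed, 196.1, 165.1 and 177.4 at 2 h, 154.5, 168.2 and 147.8 at 8 h, 220.7, 173.3 and 186.3 at 12 h, 285.2, 202.9 and 244.6 at 18 h, and 224.3, 194.8 and 208.0 at 22 h. The late libraries of Mt3 were above the fed ones but reached into the daytime range, where 12 h replicate 1 was high.

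No member of OB passed the fold threshold. In the late fast against fed, 0 of 3 were called by edgeR (3 at an unadjusted p under 0.05, against 22.8% of genes, and 0 by DESeq2, against 0.0776%), against 0.173% of genes, but 3 of 3 passed the adjusted p alone, as did 1.95% of all tested genes. The log2 fold changes were 0.56 for Mt1 (SE 0.0788, edgeR adjusted p = 0.00545), 0.64 for Mt2 (SE 0.116, edgeR adjusted p = 0.0149) and 0.40 for Mt3 (SE 0.0976, edgeR adjusted p = 0.0418). In the late against the daytime fast, likewise, 0 of 3 were called by edgeR (3 at an unadjusted p under 0.05, against 41.4% of genes, and 0 by DESeq2, against 0.824%), against 0.782%, and 3 of 3 passed the adjusted p alone, against 29.3%. The changes were 0.48 for Mt1 (SE 0.0629, edgeR adjusted p = 1.59e-04), 0.59 for Mt2 (SE 0.0922, 3.95e-04) and 0.38 for Mt3 (SE 0.0784, 0.00209). For the daytime fast against fed 0 of 3 passed with edgeR (0 at an unadjusted p under 0.05, 0 by DESeq2), with estimates of 0.08, 0.06 and 0.01, and 0.0% of all genes (1515 at an unadjusted p under 0.05, 3 by DESeq2). All 3 passed the joint test (edgeR adjusted p = 8.29e-04, 0.00317 and 0.0073 for Mt1, Mt2 and Mt3) against 15.3%. Fed libraries were all in lane 3 and late ones all in lane 4, with only the 8 h group in both. With lane in the fit, the late-fast estimates were 0.75, 0.94 and 0.53 (edgeR adjusted p = 0.24, 0.536 and 0.536) and those against the daytime fast 0.54, 0.69 and 0.43 (edgeR adjusted p = 8.02e-04, 0.00143 and 0.00872). In the joint test with lane, Mt3 no longer passed (edgeR adjusted p = 0.0578).

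In CBL and BST no member was called. CBL Mt1 measured 253.4, 265.1 and 269.9 CPM in the fed mice and 249 to 424 in the late fast, with 5 of 6 late libraries above the fed range. CBL Mt2 measured 95.9, 94.4 and 69.2 CPM fed and 85.4 to 178 in the late fast, and CBL Mt3 measured 93.8, 106.1 and 123.1 fed and 102.7 to 174.7 late. Fed and late libraries overlapped for each. In CBL the late fast against fed gave 0.41 for Mt1, 0.72 for Mt2 and 0.26 for Mt3 (edgeR adjusted p = 0.209, 0.132 and 0.447), 0 of 3 called by edgeR (2 at an unadjusted p under 0.05, against 15% of genes, and 0 by DESeq2, against 0.182%) against 0.0689% of genes. The daytime fast called 0 of 3 with edgeR (0 at an unadjusted p under 0.05, 0 by DESeq2) and 0.0% of all genes (1946 at an unadjusted p under 0.05, 6 by DESeq2). The late against the daytime fast called 0 of 3 with edgeR (0 at an unadjusted p under 0.05, 0 by DESeq2) against 0.0125%, and the joint test 0 of 3 with edgeR (1 at an unadjusted p under 0.05, against 23.8% of genes, and 0 by DESeq2, against 11.1%) against 2.99%. All CBL libraries were in lane 3, so lane played no part there, while the greater depth of the fed libraries cannot be told apart from feeding.

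BST Mt1 measured 241.5, 237.4 and 199.8 CPM fed and 214 to 303 in the late fast. BST Mt2 measured 76.5, 73.3 and 50.8 CPM fed and 61.7 to 104.98 late. BST Mt3 was the steadiest member of any organ, at 144.3 to 186.1 CPM over all 18 libraries. For Mt1 and Mt2 5 of 6 late libraries exceeded the fed range, and 18 h replicate 1 did not. The late fast against fed gave 0.30, 0.44 and 0.07 for Mt1, Mt2 and Mt3 (edgeR adjusted p = 0.462, 0.468 and 0.763), with 0 of 3 called by edgeR (2 at an unadjusted p under 0.05, against 9.86% of genes, and 0 by DESeq2, against 0%) against 0.00596%. The daytime fast called 0 of 3 with edgeR (0 at an unadjusted p under 0.05, 0 by DESeq2) and 0.0% of all genes (1582 at an unadjusted p under 0.05, 0 by DESeq2). The late against the daytime fast called 0 of 3 with edgeR (0 at an unadjusted p under 0.05, 0 by DESeq2) against 0.0179%, and the joint test 0 of 3 with edgeR (0 at an unadjusted p under 0.05, 0 by DESeq2) against 0.107%. All BST libraries were in lane 4.

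In STM the higher values came from 12 h onward. Mt1 measured 440.0, 224.0 and 263.5 CPM fed, 284.0, 233.4 and 309.6 at 2 h, 308.4, 206.8 and 257.2 at 8 h, 423.5 and 587.1 at 12 h, 529.9, 1010 and 551.0 at 18 h, and 600.8, 343.3 and 520.9 at 22 h. Fed replicate 1 lay within the late range, and 18 h replicate 2 was the highest. Mt2 measured 153.3, 106.4 and 56.5 CPM fed, 113.7, 96.3 and 130.6 at 2 h, 120.6, 65.7 and 118.4 at 8 h, 181.4 and 221.2 at 12 h, 198.9, 396.0 and 209.7 at 18 h, and 240.8, 144.8 and 205.6 at 22 h. Fed and late libraries overlapped in the same way, through fed replicate 1 and 22 h replicate 2. Mt3 was low, at 1.06, 1.66 and 1.49 CPM fed and 1.60 to 7.69 in the late fast.

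In the late fast against fed 0 of 3 members were called in STM by edgeR (3 at an unadjusted p under 0.05, against 32.3% of genes, and 0 by DESeq2, against 9.04%), against 7.09% of genes. Mt2 passed the adjusted p and just missed the fold threshold (0.99, SE 0.299, edgeR adjusted p = 0.0351). Mt1 gave 0.75 (SE 0.286, edgeR adjusted p = 0.0805) and Mt3 1.14 (SE 0.523, 0.142). For the daytime fast 0 of 3 were called with edgeR (0 at an unadjusted p under 0.05, 0 by DESeq2), and 0.0% of all genes (757 at an unadjusted p under 0.05, 2 by DESeq2). The late against the daytime fast called 0 of 3 with edgeR (2 at an unadjusted p under 0.05, against 23.9% of genes, and 0 by DESeq2, against 3.42%) against 1.48%. The joint test called Mt1 (edgeR adjusted p = 0.0413) and Mt2 (0.042), 2 of 3 against 6.55%. Fed replicate 1 weighed on these values: without it the late fast gave 1.12 for Mt1 (edgeR adjusted p = 0.0424) and 1.41 for Mt2 (0.0212), both called. Mt2 was also called without 18 h replicate 1 (1.08, edgeR adjusted p = 0.0392), 18 h replicate 3 (1.07, 0.0422), 22 h replicate 2 (1.09, 0.0248) or 22 h replicate 3 (1.02, 0.0453).

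Fed STM libraries were all in lane 5 and late ones all in lane 6, with only the 8 h group in both. With lane in the fit, the late-fast estimates were 0.86 for Mt1, 0.74 for Mt2 and -0.24 for Mt3 (edgeR adjusted p = 0.774, 0.805 and 0.974), so that Mt3 changed sign, and the joint calls of Mt1 and Mt2 ended (edgeR adjusted p = 0.922 and 0.937). Some cell type markers moved with the same groups. The 9 gastric epithelium markers, led by Pgc, summed to 222410, 167731 and 235426 CPM in the fed mice, to 147584, 113875 and 148995 at 18 h, and to 136595, 184521 and 101251 at 22 h. The 7 skeletal muscle markers, led by Acta1, summed to 1693, 1606 and 238 CPM in the fed mice, to 2336, 4215 and 2315 at 18 h, and to 2282, 3030 and 4580 at 22 h. The 8 keratinocyte markers, led by Krt10, summed to 2507, 8552 and 2203 CPM fed, to 9875, 9362 and 10190 at 18 h, and to 742, 6892 and 12697 at 22 h. Muscle markers were higher in each late library than in each fed one. So were the 7 neuron markers, led by Snap25, at 13.3 to 25.3 CPM fed, 27.7 to 42.5 in the daytime fast and 41.6 to 70.0 in the late fast. The same held for the brainstem markers, led here by Hoxa5 (11.8 to 16.5 fed, 24.8 to 64.8 late), and the olfactory bulb markers, led by Doc2g (5.28 to 5.75 fed, 7.90 to 19.8 late). Exocrine pancreas markers were lower in each late library (12.4 to 56.8 CPM) than in each fed one (124.1 to 551), and so were cerebellar neuron markers, led by Car8 (4.93 to 8.03 against 8.19 to 19.2). The sums of the brain region lists in STM are not read as tissue of those regions. The part of tissue composition in the Mt1, Mt2 and Mt3 values was not tested.

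LIV held the widest range of both liver members. Mt1 measured 64.6, 42.4 and 87.4 CPM fed, 35.6, 1466 and 818.0 at 2 h, 24.6, 32.3 and 69.8 at 8 h, 153.1, 255.9 and 59.7 at 12 h, 119.3, 482.1 and 555.4 at 18 h, and 167.02, 333.3 and 285.4 at 22 h. The 6 late libraries lay above the fed ones, and 2 mice at 2 h lay above all others. Mt2 measured 16.1, 9.57 and 6.13 CPM fed, 6.43, 804.9 and 469.5 at 2 h, 3.64, 2.84 and 14.1 at 8 h, 38.8, 54.7 and 14.0 at 12 h, 31.0, 162.5 and 267.0 at 18 h, and 37.6, 135.4 and 108.2 at 22 h. The 6 late libraries were again above the fed ones, and 2 h replicates 2 and 3 were far above 2 h replicate 1. The 9 hepatocyte markers, led by Alb, summed to 97681, 94520 and 101158 CPM in those 2 h libraries, and to 81234 to 114886 CPM over all LIV libraries.

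In the late fast against fed 0 of 2 members were called in LIV by edgeR (2 at an unadjusted p under 0.05, against 26.7% of genes, and 2 by DESeq2, against 2.29%), against 1.66% of genes. The log2 fold changes were large with large errors: 2.22 for Mt1 (SE 0.923, edgeR adjusted p = 0.148) and 3.41 for Mt2 (SE 1.24, 0.101). DESeq2 gave the same sizes with adjusted p = 0.0394 and 0.00711. In the late against the daytime fast 0 of 2 were called by edgeR (2 at an unadjusted p under 0.05, against 21.7% of genes, and 2 by DESeq2, against 1.11%), against 0.492%, with 1.97 for Mt1 (SE 0.696, edgeR adjusted p = 0.131) and 2.93 for Mt2 (SE 0.90, 0.0937). Between the daytime fast and fed 0 of 2 were called with edgeR (0 at an unadjusted p under 0.05, 0 by DESeq2), against 0.813%. By the joint test Mt2 was called (edgeR adjusted p = 0.0323) and not Mt1 (0.0553), 1 of 2 against 16.0%.

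The calls in LIV depended on the 2 h mice. Without 2 h replicate 1, the low library of that group, both members were called in the late fast against fed (Mt1 2.22, edgeR adjusted p = 0.0427; Mt2 3.41, 0.028) and against the daytime fast (Mt1 1.97, edgeR adjusted p = 0.0489; Mt2 2.92, 0.0361). With the whole 2 h group left out, a choice made after seeing its values, Mt2 was called against fed (3.41, edgeR adjusted p = 0.0366) and against the daytime fast (2.93, 0.0499). Mt2 was also called against the daytime fast without 18 h replicate 1 (3.17, edgeR adjusted p = 0.0462). Fed and 2 h libraries were all in lane 1, late ones all in lane 2, and the 8 h group in both. With lane in the fit the late fast gave 0.86 for Mt1 and 1.21 for Mt2 (edgeR adjusted p = 0.867 and 0.868), the daytime estimates turned to -0.73 and -1.19, and the joint call of Mt2 ended (edgeR adjusted p = 0.0786).

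In iBAT Mt1 measured 144.9, 149.1 and 87.1 CPM fed, 147.5, 154.95 and 149.4 at 2 h, 153.4, 116.3 and 112.8 at 8 h, 199.3, 123.8 and 290.3 at 12 h, 144.3, 203.2 and 197.7 at 18 h, and 386.2 and 429.9 at 22 h. The 22 h pair lay above all other libraries, and 18 h replicate 1 lay within the fed range. Mt2 measured 16.0, 15.7 and 3.86 CPM fed, 17.6, 23.4 and 26.4 at 2 h, 13.9, 8.60 and 6.33 at 8 h, 29.7, 11.0 and 30.2 at 12 h, 15.2, 27.4 and 35.2 at 18 h, and 37.1 and 55.8 at 22 h. Here too the 22 h pair was highest, and the groups overlapped through 18 h replicate 1 and 2 of the 12 h mice.

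Mt2 of iBAT was called in the late against the daytime fast (1.20, SE 0.377, edgeR adjusted p = 0.0338), 2.30 times the daytime level, 1 of 2 members against 6.62% of genes. Mt1 passed the adjusted p but not the fold threshold there (0.75, SE 0.208, edgeR adjusted p = 0.0191). In the late fast against fed 0 of 2 were called by edgeR (2 at an unadjusted p under 0.05, against 37% of genes, and 1 by DESeq2, against 11.2%) against 9.6%, with 0.93 for Mt1 (SE 0.259, edgeR adjusted p = 0.02) and 1.34 for Mt2 (SE 0.474, 0.0562). DESeq2 called Mt2 against fed (1.36, adjusted p = 0.0104). In the daytime fast against fed 0 of 2 were called with edgeR (0 at an unadjusted p under 0.05, 0 by DESeq2) against 0.551%. The joint test called Mt1 (edgeR adjusted p = 0.00399) and not Mt2 (0.0545), 1 of 2 against 29%.

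The call of Mt2 against the daytime fast ended without 8 h replicate 2 (1.16, edgeR adjusted p = 0.0781), 8 h replicate 3 (1.08, 0.0784), 12 h replicate 2 (1.03, 0.0771), 18 h replicate 2 (1.18, 0.0645), 18 h replicate 3 (1.07, 0.0737), 22 h replicate 2 (1.33, 0.0858) or 22 h replicate 3 (1.05, 0.0848). Against fed, Mt1 gained a call without 0 h replicate 1 (1.08, edgeR adjusted p = 0.025) or 18 h replicate 1 (1.01, 0.02), and Mt2 without 12 h replicate 2 (1.34, 0.0363) or 18 h replicate 1 (1.48, 0.0421). The retained 22 h libraries were alone in lanes 1 and 3, and a fit with lane could not be made, so lane and the 22 h fast cannot be told apart in iBAT. Adipocyte markers were high in the 22 h libraries. The 7 brown adipocyte markers, led by Ucp1, summed to 17482 and 11985 CPM at 22 h, to 8441, 9165 and 8939 at 18 h, and to 7042, 5073, 4879, 12193, 5905 and 10132 in the daytime fast. The 7 white adipocyte markers, led by Fabp4, summed to 29575 and 24757 CPM at 22 h, to 14379, 16388 and 16039 at 18 h and to 10316 to 17657 in the daytime fast. The 18 h sums of both lists lay within the daytime range. Skeletal muscle markers, led by Acta1, ran from 38.6 to 10636 CPM in the daytime fast and from 295 to 2152 in the late fast. The part of tissue composition in the iBAT differences was not tested.

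In pgWAT Mt1 measured 176.4, 188.3 and 93.1 CPM fed, 316.7, 362.9 and 205.7 at 2 h, and 134.5 to 502.6 in the late fast. Mt2 measured 66.5, 78.4 and 23.8 CPM fed, 107.3, 205.5 and 88.1 at 2 h, and 42 to 216.4 in the late fast. Mt3 stayed between 0 and 17.2 CPM. Without 22 h replicate 2, which stood apart, the late fast against fed gave 1.18 for Mt1 (edgeR adjusted p = 0.106) and 1.21 for Mt2 (0.206). Fed and late libraries overlapped for all 3, while the 3 libraries at 2 h lay above the fed ones for Mt1 and Mt2. The late fast against fed gave 1.04 for Mt1 (SE 0.423, edgeR adjusted p = 0.176) and 1.05 for Mt2 (SE 0.568, 0.287), and 0 of 3 members were called by edgeR (1 at an unadjusted p under 0.05, against 21.7% of genes, and 0 by DESeq2, against 3.52%) against 0.00609%. The daytime fast called 0 of 3 with edgeR (0 at an unadjusted p under 0.05, 0 by DESeq2) and 0.0% of all genes (1286 at an unadjusted p under 0.05, 5 by DESeq2). The late against the daytime fast called 0 of 3 with edgeR (0 at an unadjusted p under 0.05, 0 by DESeq2) against 0.00609%. The joint test called 0 of 3 with edgeR (0 at an unadjusted p under 0.05, 0 by DESeq2) and 0.0% of all genes (1694 at an unadjusted p under 0.05, 556 by DESeq2). Fed pgWAT libraries were all in lane 5 and late ones all in lane 6, with only the 12 h group in both. With lane in the fit edgeR called 0 genes in the late fast against fed (1117 at an unadjusted p under 0.05, against 3568 without lane).

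In psWAT mice of 1 fasting time differed widely. Mt1 measured 122.7, 157.3 and 26.9 CPM fed, 46.4, 36.6 and 357.6 at 12 h, and 29.5 to 211 in the late fast. Mt2 measured 21.2, 27.6 and 3.42 CPM fed, 12.0, 10.2 and 160.7 at 12 h, and 7.78 to 57.6 in the late fast. At 12 h the highest library of each was replicate 3, which also held the neuronal markers. The late fast against fed gave -0.06 for Mt1, 0.40 for Mt2 and 0.98 for Mt3, with 0 of 3 called by edgeR (0 at an unadjusted p under 0.05, 0 by DESeq2) and 0.0% of all genes (867 at an unadjusted p under 0.05, 3 by DESeq2). Mt3 in the daytime fast against fed (3.28, SE 1.92, edgeR adjusted p = 0.966) rests on 12 h replicate 3, and without it was -0.52 (edgeR adjusted p = 1). Without that library the daytime estimates of Mt1 and Mt2 went from 0.27 and 1.05 to -0.72 and -0.26. The daytime fast called 0 of 3 with edgeR (0 at an unadjusted p under 0.05, 0 by DESeq2) and 0.0% of all genes (452 at an unadjusted p under 0.05, 3 by DESeq2). The late against the daytime fast called 0 of 3 with edgeR (0 at an unadjusted p under 0.05, 0 by DESeq2) and 0.0% of all genes (918 at an unadjusted p under 0.05, 13 by DESeq2). Over all times, 0 of 3 passed the joint test with edgeR (1 at an unadjusted p under 0.05, 0 by DESeq2) and 0.0% of all genes (3192 at an unadjusted p under 0.05, 2051 by DESeq2).

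Whether the response of Mt1 or Mt2 in an organ differed from the mean of the same mouse's other organs was tested by exact permutation over mice (two-sided, 54 tests of 2 genes, 3 contrasts and 9 organs). None passed adjustment, with 0 of 54 tests and a lowest adjusted p of 0.253 by exact permutation. The lowest raw p was that of Mt2 in LIV, late against daytime fast, where the log2 response exceeded that of the other organs by 2.43 (exact permutation p = 0.00866). Mt2 in BST, late against fed, differed by -0.74 (exact permutation p = 0.0119, the smallest that 84 permutations can give). In both contrasts against fed only 56 or 84 permutations exist in any organ, with a smallest p of 0.0179 or 0.0119, and in the late against the daytime fast the smallest p is 0.00216 at best, so no test could pass alone after adjustment over 54. Mt3 was not in it. A call in an organ is therefore not shown to set it apart from organs without calls.

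The proportion of Mt1 to Mt2 varied between organs and mice. The median ratio of Mt1 to Mt2 counts was 3.73 in OB, 3.36 in BRN, 2.64 in CBL, 3.16 in BST, 2.53 in STM, 4.14 in LIV, 9.48 in iBAT, 2.61 in pgWAT and 3.86 in psWAT. iBAT had the highest median, with libraries from 5.62 to 22.5. LIV ranged from 1.74 to 14.2 and psWAT from 1.46 to 7.85. In OB it stayed between 3.21 and 4.34. Among 27 exact permutation tests of the log2 ratio between fasting groups (two-sided), 0 passed adjustment. The contrasts against fed have only 56 or 84 permutations, with a smallest p of 0.0179 or 0.0119, and the late against the daytime fast at most 924, with 0.00216, so no test could pass alone after adjustment over 27. The lowest raw p was in LIV, where the log2 ratio in the late fast differed from the daytime fast by -0.89 (exact permutation p = 0.00866, adjusted p = 0.234). Against fed it differed by -1.08 (exact permutation p = 0.0357, adjusted p = 0.307).

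Across mice Mt1 and Mt2 rose and fell together in each organ, on log2(CPM + 1) values. Pearson's r was lowest in CBL (r = 0.876, permutation p = 2e-05; Spearman's rho = 0.870, p = 2e-05) and highest in LIV (r = 0.980, p = 1e-05; rho = 0.963, p = 1e-05), where 1e-05 is the smallest p that 100000 resamples can give. Over the 9 organs the adjusted permutation p was at most 2e-05 for r and 3e-05 for rho. Without the 2 libraries farthest from the median of Mt1, r lay between 0.832 in BST and 0.967 in LIV. With values centred on each fasting time, r lay between 0.773 in BRN (permutation p = 3.6e-04, rho = 0.800, p = 4.2e-04) and 0.984 in psWAT, and the lowest rho was that of CBL (rho = 0.575, permutation p = 0.0143). These centred p-values are too small, because the permutation did not allow for the values that centring fixes. Within single lanes the relation held in LIV lane 2 (10 libraries, r = 0.981, permutation p = 1e-05), OB lane 4 (10 libraries, r = 0.970, permutation p = 1e-05), STM lane 6 (9 libraries, r = 0.991, exact permutation p = 5.51e-06) and iBAT lane 5 (7 libraries, r = 0.975, exact permutation p = 0.00119). In LIV lane 1 it rested on few libraries (8 libraries, r = 0.977, exact permutation p = 0.00228, and 0.594 without the 2 farthest). In 2 of the 14 lanes with 6 or more libraries of an organ, r did not pass: STM lane 5 (8 libraries, r = 0.694, exact permutation p = 0.0578, and 0.366 without the 2 farthest), where rho did pass (rho = 0.833, p = 0.0154, adjusted p = 0.018), and BRN lane 4 (6 libraries, r = 0.760, exact permutation p = 0.0764, and 0.153 without the 2 farthest), where rho did not (rho = 0.771, p = 0.103). With the low-total libraries included, r in BRN was 0.0379 (permutation p = 0.851), so the relation there holds over the retained libraries alone.

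Some of the Mt2 variation was shared between organs of the same mouse. With values centred on fasting time, 6 of 36 organ pairs passed for Mt2, all among CBL, BST, iBAT and pgWAT. Centring on group means leaves fewer free values than mice, and the permutation did not allow for this. The p-values of all centred correlations in this paragraph are therefore too small, and pairs near the threshold may not pass. CBL and BST gave r = 0.922 (permutation p = 1e-05, adjusted over 36 pairs p = 1.8e-04; rho = 0.948, p = 1e-05, adjusted p = 2.4e-04), and r = 0.891 without the 2 farthest mice. BST and iBAT gave r = 0.881 (permutation p = 1e-05, adjusted p = 1.8e-04; rho = 0.902, p = 2e-05; 0.827 without the 2 farthest), and CBL and iBAT r = 0.746 (permutation p = 4.1e-04, adjusted p = 0.00492; rho = 0.858, p = 2e-05; 0.743 without). So mice with high Mt2 in the cerebellum for their fasting time also had high Mt2 in the brainstem and in brown fat. Pairs with pgWAT gave r = 0.717 for BST (permutation p = 9.7e-04, adjusted p = 0.00698, rho = 0.752, p = 5.9e-04), 0.732 for iBAT (permutation p = 8.8e-04, adjusted p = 0.00698, rho = 0.694, p = 0.00247) and 0.613 for CBL (permutation p = 0.0062, adjusted p = 0.0372, rho = 0.639, p = 0.00531), and r = 0.718, 0.621 and 0.586 without the 2 farthest mice. Without the pgWAT library that stood apart these 3 pairs gave r = 0.750, 0.734 and 0.620 (permutation, adjusted p = 0.00666, 0.00828 and 0.0463). CBL and BST each came from a single lane. The relation was also taken within 37 sets of 6 or more mice that shared a lane in both organs, a choice made after the correlations were seen. There BST and iBAT gave r = 0.946 (7 mice, exact permutation p = 1.98e-04, adjusted p = 0.00366; 0.932 without the 2 farthest), and CBL and iBAT r = 0.831, which did not pass (7 mice, exact permutation p = 0.0266, adjusted p = 0.141; rho = 0.929, p = 0.00675, adjusted p = 0.0624). With pgWAT, which had 2 such sets of 8 mice, BST gave r = 0.838 and 0.565 (exact permutation, adjusted p = 0.141 and 0.351) and CBL 0.498 and 0.645 (adjusted p = 0.379 and 0.236), so none of these passed. For iBAT with pgWAT or psWAT no such set exists. For Mt1 2 of 36 pairs passed by r and 0 by rho: CBL and BST (r = 0.722, permutation p = 6.2e-04, adjusted p = 0.0135; rho = 0.610, adjusted p = 0.104) and iBAT and psWAT (r = 0.743, permutation p = 7.5e-04, adjusted p = 0.0135; rho = 0.656, adjusted p = 0.104). Without the 2 farthest mice r was 0.606 and 0.623. Without the psWAT library that stood apart iBAT and psWAT gave r = 0.567 (permutation p = 0.0272, adjusted p = 0.196) and no longer passed.

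Since Mt1 and Mt2 varied together and Mt3 was set apart by organ, their promoters are shown: 250 bases before and 50 after each start, from RefSeq on GRCm38.p6, 5′ to 3′ on the plus strand, at chr8:94178839-94179138 (Mt1), chr8:94172368-94172667 (Mt2) and chr8:94152357-94152656 (Mt3). Capitals mark matches on either strand to the core letters of the metal response element, TGCACNC or TGCGCNC, which differ at 1 letter and so share no match. The search was chosen after the data were seen.
Mt1: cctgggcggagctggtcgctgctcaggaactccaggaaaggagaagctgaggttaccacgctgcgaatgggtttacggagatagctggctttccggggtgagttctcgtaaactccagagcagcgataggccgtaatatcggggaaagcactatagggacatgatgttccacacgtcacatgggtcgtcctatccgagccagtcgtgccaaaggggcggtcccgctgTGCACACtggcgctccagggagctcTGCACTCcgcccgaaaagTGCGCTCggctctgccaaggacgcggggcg
Mt2: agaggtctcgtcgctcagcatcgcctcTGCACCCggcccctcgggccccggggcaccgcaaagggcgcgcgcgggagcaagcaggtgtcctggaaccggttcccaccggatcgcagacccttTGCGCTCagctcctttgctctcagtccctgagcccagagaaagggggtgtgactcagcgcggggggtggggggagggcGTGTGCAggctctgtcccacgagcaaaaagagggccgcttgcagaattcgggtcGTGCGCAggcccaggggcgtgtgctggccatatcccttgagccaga
Mt3: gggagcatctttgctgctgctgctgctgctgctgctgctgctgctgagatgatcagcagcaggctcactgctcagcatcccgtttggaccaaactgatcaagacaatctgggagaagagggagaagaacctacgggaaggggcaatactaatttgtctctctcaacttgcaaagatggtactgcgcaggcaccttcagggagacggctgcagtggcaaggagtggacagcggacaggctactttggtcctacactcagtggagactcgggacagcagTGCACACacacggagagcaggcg
In its window Mt1 held 3 matches, whose first bases lie at -23, 2 and 20 from the RefSeq start used. Each gene has 1 window on 1 start, and other transcript starts were not searched. The annotated exons of Mt1 cover its whole span, so this start may not be that of its short transcript. Counts and positions hold for these windows only. Mt2 held 4, at -223, -128, -50 and 4. Mt3 held 1, at 27, and Mt4 held 1, at -91. Of 32851 promoters of the same length 12.6% held TGCACNC, 15.4% TGCGCNC and 25.7% either, while 1.97% held 3 or more matches and 0.517% held 4 or more. By these windows Mt1 and Mt2 were thus among the few promoters with several matches, and the single match of Mt3 is common. The RefSeq start of Mt2 lies 46 bases before the annotated gene start given above, that of Mt1 7 bases after it, and that of Mt3 on it. A match describes letters only.

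Other genes of metal handling and of the known inputs to metallothionein transcription were counted over all organs. Among the members with Mt4, 3 of 26 gene and organ pairs rose in the late fast against fed, with a median log2 fold change of 0.74, where all tested pairs had a median of -0.01. Of all tested pairs 2.56% were called. Glucocorticoid response genes, 12 in number, had 6 pairs higher and 0 lower (5.77% of their pairs, median 0.24), and by DESeq2 10 higher and 1 lower, where DESeq2 called 3.7% of all pairs. Among them Per1, a clock gene with glucocorticoid response elements, rose by 1.56 in STM (edgeR adjusted p = 0.0154), and Fkbp5, a chaperone of the glucocorticoid receptor, by 1.47 in iBAT (0.0387). Zinc importers (ZIP), 14 in number, had 0 pairs higher and 6 lower (5.50%, median -0.07), among them Slc39a11 in STM (-1.53, edgeR adjusted p = 0.00623) and Slc39a6 in iBAT (-1.50, 0.00437). Zinc exporters (ZnT) had 0 of 49 pairs called by edgeR (9 at an unadjusted p under 0.05, against 21.9% of all pairs, and 0 by DESeq2, against 3.7%). Copper handling genes had 2 of 86 higher and 1 lower (3.49%), metal-responsive transcription genes 2 of 68 higher and 1 lower (4.41%), NRF2 targets 0 of 86 higher and 2 lower (2.33%), and acute phase and STAT3 targets 2 of 90 higher and 0 lower (2.22%). In BRN the called ones were Selenow (1.35, edgeR adjusted p = 0.0119), Atox1, a copper chaperone (1.15, 0.0415), and Sult1a1 (1.32, 0.0268). With lane in the fit edgeR called 0 genes in BRN and 0 in STM (1581 and 1116 at an unadjusted p under 0.05), so all list calls in these organs ended. Mtf1 itself, the metal-sensing factor, was not called in any of 9 organs, with estimates from -0.41 in STM (edgeR adjusted p = 0.196) and LIV (0.0824) to 0.11 in OB (0.463). In the daytime fast against fed, edgeR called 0.578% of all pairs. The lists held 2 calls among the metallothioneins (7.69% of their pairs) and 1 higher in copper handling (1.16%). Metal-responsive transcription had 1 higher and 1 lower (2.94%), and the ZIP genes had 1 lower (0.917%). With edgeR 0 were called in the ZnT, NRF2, glucocorticoid and acute phase lists (6, 7, 13 and 10 at an unadjusted p under 0.05). The share of all pairs at that p was 11.6%. DESeq2 called 0, 1, 1 and 0 in these 4 lists, against 0.879% of all pairs.

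Genes whose level followed a member most closely over the libraries of an organ are given as description, by Pearson's r of log2 normalized CPM. For Mt2 in BST they were Tsc22d3 (0.954), Cdkn1a (0.893) and Adipor2 (0.871), and in CBL Adipor2 (0.966), Sgk1 (0.947) and Tsc22d3 (0.936). Elsewhere the first gene for Mt2 was Pnpla2 in OB (0.929), Elob in BRN (0.950), Inpp5a in STM (0.895) and 9330020H09Rik in iBAT (0.898). In pgWAT it was Zdhhc12 (0.842) and in psWAT Manbal (0.815). Mt1 was followed by Klhl2 in CBL (0.898), Psat1 in BST (0.839), Tk2 in OB (0.946), Paxx in BRN (0.973), Actb in STM (0.914) and Ramp2 in iBAT (0.956). In LIV the antisense neighbour Gm45774 came first for both Mt1 (0.876) and Mt2 (0.888). It held at most 25 counts in any library and shares 432 exon bases with Mt2, so these r values rest on low counts of an overlapping gene. Mt3 was followed by Gm6136 in OB (0.987) and by Rpsa-ps10 (0.992) and Ctsd (0.991) in BRN. In psWAT Gap43 followed Mt3 (0.983), which rests on 12 h replicate 3. Over the 9 organ means the closest genes were Bsg for Mt1 (0.951), Mycbpap for Mt2 (0.942) and B930082K07Rik for Mt3 (0.998).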

How the data were processed

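Each library was made from 1 organ of 1 mouse with a stranded messenger RNA kit. The authors aligned read pairs to GRCm38.p5 with TopHat2 2.1.1, kept uniquely mapped reads, ran HTSeq-count 0.9.1 in union mode on the exons of a Gencode release, and deposited raw counts per gene. CPM was computed here from the deposited counts. Members and gene lists were chosen with earlier results of these data known.

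Groups and mice come from the labels. The 5 libraries the study removed for low totals were left out. Genes were kept at a CPM equal to 10 counts in 3 or more libraries, and 1 edgeR 4.0.16 fit per organ (R 4.3.3, TMM, robust quasi-likelihood) covered all 6 times, with Benjamini-Hochberg adjustment per organ and contrast. The code was tested on simulated data. The late fast is the mean of 18 and 22 h, and the daytime fast that of 8 and 12 h. Organ levels, responses, ratios and correlations used permutation tests in Python 3.11.15 with numpy 2.4.6, scipy 1.17.1 and pandas 2.3.3, with 100000 resamples or exact enumeration, on log2(CPM + 1). Figures used matplotlib 3.10.9. Exon lengths and positions come from Gencode release M21, while the authors counted on another release. Alternatives were DESeq2 1.42.0 with its size factors, the replicate block, lane as a covariate, 0 and 2 h together as fed, all libraries, no library that stood apart, other low-count filters, no fold threshold, other pseudocounts, and each library left out in turn.

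Named genes are the members, the called genes of lists on zinc, copper, metal-responsive transcription, NRF2, glucocorticoid and acute phase genes with Mtf1, and the genes closest to a member by r. Those printed are examples of each.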

Additional observations from a re-analysis of the deposited data

Results flagged for a closer look

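Member transcripts were also measured in the 5 libraries that were left out for low totals, which entered only the comparisons made with all libraries. BRN 8 h replicate 3 held Mt1 at 314 CPM and Mt3 at 589 CPM, where 3 counts equal 22.95 CPM, and no Mt2 count. BRN 18 h replicate 1 held Mt1 at 135.8 CPM, Mt2 at 146.5 CPM and Mt3 at 1001 CPM, with 3 counts at 10.7 CPM. This was the highest Mt3 value of any library, and its Mt1 lay below all retained BRN libraries. STM 12 h replicate 3 held Mt1 at 744 CPM, Mt2 at 266 CPM and Mt3 at 6.97 CPM, each above the other 12 h libraries of STM. iBAT 22 h replicate 1 held Mt1 at 447 CPM and Mt2 at 61.1 CPM, above the 2 retained 22 h libraries. psWAT 22 h replicate 2 held Mt1 at 94.8 CPM and Mt2 at 18.0 CPM, between the 2 retained 22 h libraries.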

How the results depend on the processing

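Of the log2 fold changes of members under other settings, 540 stayed on their side of the thresholds, 11 gained a call and 18 lost one. With 1 library left out the numbers were 1266, 16 and 26. The sign turned in at least 1 setting for 28 results, none of them called. The low-count filter at 3 counts and the fits without the 2 h group were added after seeing the data. Fits without a low-count filter gave an infinite prior in 5 organs (OB, BRN, CBL, BST, LIV) and are void there, so no count over 9 organs is given for them. A fit with lane could not be made in iBAT. Replicate numbers did not pair the samples: the mean correlation of same-numbered deviations ran from -0.078 in psWAT to 0.159 in iBAT. The replicate block gave 4 joint calls (7 without it) and called Mt2 of STM in the late fast against fed (1.03, edgeR adjusted p = 0.039).

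Late fast against fed, 3 of 25 were called: 6 by DESeq2, 0 with lane, 1 with all libraries, 0 without the libraries that stood apart, 8 without the fold threshold, and 0 to 5 with 1 library left out. Daytime fast against fed, 2 were called: 0 with lane, 1 with 0 and 2 h as fed, 0 with all libraries, and 0 to 3 with 1 library left out. Late against daytime fast, 1 was called: 3 by DESeq2, 5 without the fold threshold, and 0 to 3 with 1 library left out. The joint test called 12 by DESeq2 and 3 with lane. The counts with lane take iBAT from the fit without it, so 1 of these 3, Mt1 of iBAT, had no lane in its fit, and the 1 call of the late against the daytime fast was not tried with lane.

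In BRN, late fast against fed, lane gave 1.20, 1.09 and 1.43 for Mt1, Mt2 and Mt3. With 0 and 2 h as fed, Mt1 was at 0.88 and Mt2 at 0.75, under the fold threshold, and in STM Mt2 (1.02, edgeR adjusted p = 0.00683) and Mt3 (1.17, 0.0462) gained calls. All libraries gave 1.05, 1.10 and 1.58 (edgeR adjusted p = 0.249, 0.38 and 0.0661), and leaving out the libraries that stood apart 1.10, 0.88 and 1.15. With 1 library left out Mt1 ran from 1.10 to 1.32, Mt2 from 0.88 to 1.21 and Mt3 from 1.15 to 1.62. In the daytime fast, lane gave 1.31 for Mt1 and 1.65 for Mt3, 0 and 2 h as fed 0.79 for Mt1, and all libraries 1.12 and 1.48. With 1 library left out Mt1 ran from 0.92 to 1.22, Mt2 from 0.67 to 1.09 and Mt3 from 1.22 to 1.58. Mt2 of iBAT, late against daytime fast, was at 1.22 without the 2 h group (edgeR adjusted p = 0.0513), at 1.19 with no filter (0.104), and ran from 1.03 to 1.38 with 1 library left out. Against fed, Mt2 of iBAT gained a call with all libraries (1.41, edgeR adjusted p = 0.0367). In LIV, Mt1 and Mt2 ran from 1.99 to 2.49 and from 3.07 to 3.84 against fed. In STM Mt1 ran from 0.51 to 1.12 and Mt2 from 0.73 to 1.41, and in iBAT from 0.67 to 1.08 and from 0.91 to 1.65. With scaling over all organs 14 of 24 neighbouring organs passed (9 in the main test). Without centring on fasting time 1 organ pair passed for Mt1 (2 in the main test) and 13 for Mt2 (6). Without the libraries that stood apart, a setting added after seeing the data, 1 passed for Mt1 and 6 for Mt2. The cause of these changes was not tested. Mt3 lay near or under the floor in LIV and iBAT. The median totals of these organs, 8642328 and 9576245 counts, were within the range of those of the other organs.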
